A study of Mus musculus with 2 samples.

Results

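Among macrophages sorted from the mouse small intestine, a small set of cells carried transcripts of enterocytes, the absorptive cells of the gut epithelium. These cells were selected on 10 epithelial genes: Fabp1, Fabp2, Fabp6, Rbp2, Reg3b, Reg3g, Epcam, Krt8, Krt18 and Krt19. A cell first had to hold at least 200 detected genes, at most 10% mitochondrial transcripts and at least 0.5% of its transcripts from C1qa, C1qb and C1qc, the complement genes that mark tissue macrophages. It was then counted as a carrier when the 10 genes together gave at least 5 transcripts and at least 0.1% of all its transcripts. By this rule 103 of 5828 deposited cells were carriers, 85 from wild-type (WT) animals and 18 from CCR2-/- animals. The comparison cells were the 4384 C1q-positive cells with 0 or 1 transcript of the 10 genes, 2257 from WT and 2127 from CCR2-/-, and are called reference cells below.

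The WT animals were male C57BL/6J mice from Janvier. The CCR2-/- animals, which lack a chemokine receptor needed for monocytes to exit the marrow, came from JAX strain #:004999 and were bred in-house, so source and genotype formed the same split. For each genotype the intestines of 3 to 4 animals were pooled into 1 library, after mucus and epithelium had been stripped off and the tissue digested with Liberase TL. Sorted cells were live, CD45+, CD11b+, MHCII+ and CD64+ and negative for CD3, TCRb, B220, SiglecF, Ly6C and Ly6G. Transcripts were counted as unique molecular identifiers (UMIs) with the 10x Genomics 3′ v2 chemistry, and the WT cells were run on 2 lanes. With 1 library per genotype no value has a replicate and no test between groups was possible. All intervals below are exact 95% intervals (Poisson for sums of UMIs, Clopper-Pearson for shares of cells, conditional binomial for ratios) and cover counting error only. Levels are given as CPM, the UMIs of a gene per 1000000 UMIs of the summed cells.

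Enterocytes take up fatty acids, retinol and bile acids and bind them inside the cell with small carrier proteins. Fabp1 and Fabp2 bind fatty acids, Rbp2 binds retinol, and all 3 are at their highest in the proximal and middle small intestine, whereas Fabp6 binds bile acids and marks the ileum. Reg3b and Reg3g encode secreted antimicrobial lectins, Epcam an epithelial adhesion molecule, and the keratins the intermediate filaments of epithelia. Macrophages of the lamina propria lie directly beneath these cells and are known to engulf dying cells, which needs bridging molecules and receptors for uptake, lysosomal enzymes for degradation and lipid handling genes for export of cholesterol.

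Carriers made up 3.22% of C1q-positive WT cells (85 of 2639, 95% interval 2.58% to 3.97%) and 0.815% of C1q-positive CCR2-/- cells (18 of 2208, 0.484% to 1.29%). The lanes of the WT library gave 3.08% (56 of 1821) and 3.55% (29 of 818). Part of the rule is a fixed number of UMIs, and the C1q-positive cells of the libraries differed in depth, with medians of 6368 UMIs in WT and 2555.5 in CCR2-/-. Within cells of 2000 to 4000 UMIs the share was 1.42% in WT (0.615% to 2.78%) and 0.964% in CCR2-/- (0.442% to 1.82%). Within cells of 4000 to 8000 UMIs it was 3.91% in WT (2.81% to 5.29%) and 1.71% in CCR2-/- (0.742% to 3.35%). When every cell was thinned to 2000 UMIs, which left out 113 WT and 799 CCR2-/- cells, 1.82% of WT cells (1.34% to 2.42%) and 0.710% of CCR2-/- cells (0.341% to 1.30%) kept at least 5 UMIs of the 10 genes. The WT share was the higher in each of these comparisons. The intervals overlapped within both depth classes but not over all cells or after thinning. They cover counting error within 1 library per genotype, so their overlap or separation does not test a difference between genotypes. The thinned shares are also not on the main rule, because 5 of 2000 UMIs is a higher share than its minimum.

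**Figure D1:**
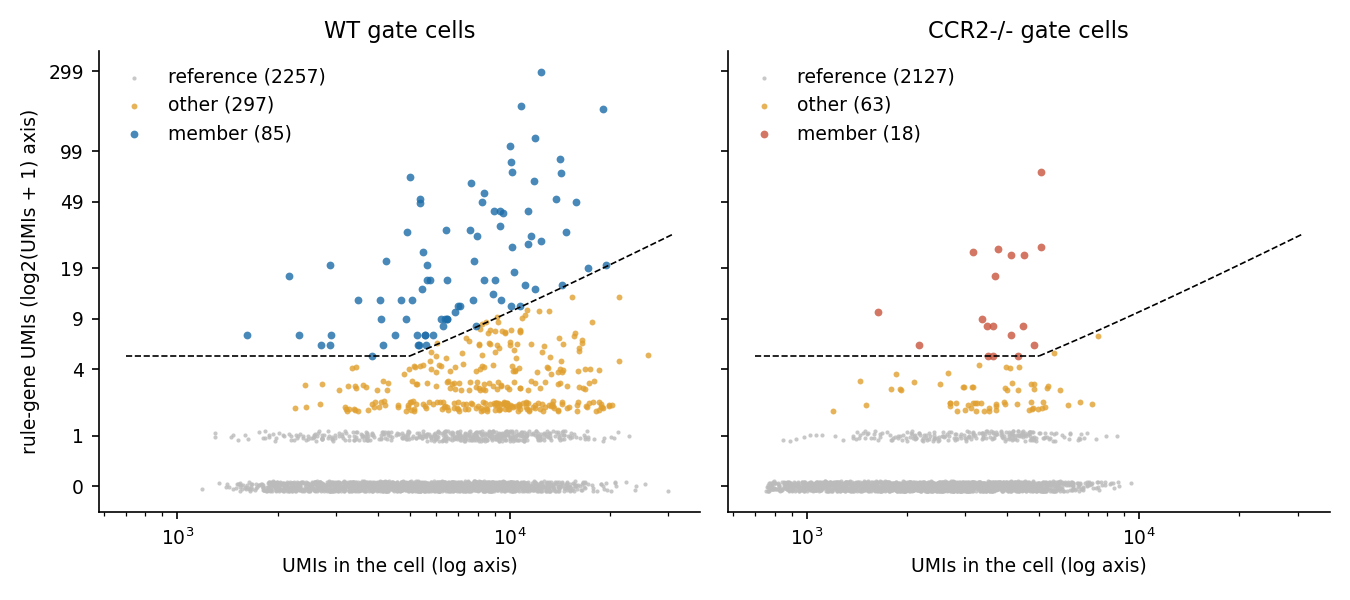
UMIs of the 10 epithelial genes against all UMIs of each C1q-positive cell, on a log2(UMIs + 1) axis and a log axis, for WT (left) and CCR2-/- (right). Grey points are reference cells, orange points are cells between the classes, coloured points are carriers (labelled members in the plots) and the dashed line is the rule. The WT carriers reach 297 UMIs of the 10 genes, the CCR2-/- carriers reach 74, and cells lie on both sides of the line without a gap.

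The boundary of the class was not a natural break. In WT, 59 cells held at least 5 UMIs of the 10 genes but less than 0.1% of their total, with a median depth of 10110 UMIs, and in CCR2-/- there were 2 such cells. The 7 WT carriers just inside the rule, with 5 or 6 UMIs, had shares of 0.107% to 0.221%, and the 37 WT cells just outside it, with 4 UMIs, had shares of 0.0215% to 0.119%. In CCR2-/- the 5 carriers with 5 or 6 UMIs had shares of 0.116% to 0.276%, and the 6 cells with 4 UMIs had shares of 0.0917% to 0.215%. The UMIs were unevenly spread among carriers. In WT the 3 richest carriers held 660 of 2809 UMIs of the 10 genes (23.5%), and 23 of 85 carriers held fewer than 10. In CCR2-/- the 3 richest held 125 of 289 UMIs (43.3%), and 10 of 18 carriers held fewer than 10. Carriers accounted for 65.6% of all UMIs of the 10 genes in C1q-positive WT cells and 42.6% in CCR2-/-. The rule picks carriers for these same UMIs, so large shares are partly fixed by it and do not bear on the boundary.

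Carriers held the transcripts of macrophages. Csf1r, the receptor for the main growth factor of macrophages, was detected in 84 of 85 WT carriers and in 18 of 18 CCR2-/- carriers. Its level was 1106 CPM in WT carriers against 917 CPM in reference cells, and 1897 CPM against 1654 CPM in CCR2-/-. The C1q genes, which the rule required, made up a median of 1.10% of UMIs in WT carriers and 1.17% in reference cells, and 0.830% and 0.865% in CCR2-/-. Carriers were deeper than reference cells, with medians of 7073 against 6004 UMIs in WT and 3723.5 against 2490 in CCR2-/-. They also held more detected genes, with medians of 2236 against 1944 in WT and 1523.5 against 1115 in CCR2-/-. Their mitochondrial share was close to that of reference cells, with medians of 3.06% against 3.04% in WT and 4.15% against 4.04% in CCR2-/-.

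Among the fatty acid and retinol carriers, Fabp2 was the most widely detected of the 10 genes in WT, in 77 of 85 carriers, at 1163 CPM (1084 to 1247). In CCR2-/- Fabp2 was detected in 17 of 18 carriers at 1533 CPM (1253 to 1855). Fabp1 was detected in 54 of 85 WT carriers at 831 CPM and in 17 of 18 CCR2-/- carriers at 1606 CPM. Rbp2 was detected in 54 of 85 WT carriers at 507 CPM and in 15 of 18 CCR2-/- carriers at 876 CPM. These 3 genes were therefore present in most carriers of both libraries.

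Among carriers the ileal and antimicrobial genes were found mainly in WT, beside only 18 carriers in CCR2-/-. Fabp6 (chromosome 11, 43596049 to 43601540, minus strand, GRCm38) was detected in 30 of 85 WT carriers at 1106 CPM (1029 to 1188), and in 1 of 18 CCR2-/- carriers with 3 UMIs (43.8 CPM, 9.03 to 128). Of the 753 Fabp6 UMIs in WT carriers, 206 came from 1 cell. Reg3b was detected in 34 of 85 WT carriers at 245 CPM, with 61 of its 167 UMIs in 1 cell. No Reg3b UMI was found in the 18 CCR2-/- carriers, where 3 UMIs would have been 43.8 CPM. Reg3g was detected in 27 of 85 WT carriers at 141 CPM and in 1 CCR2-/- carrier with 1 UMI. In reference cells of WT and CCR2-/- Reg3b was close, at 4.66 and 4.05 CPM. Fabp6 stood there at 3.46 and 1.01 CPM and Reg3g at 2.99 and 0.337 CPM.

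The structural epithelial genes were sparse. Krt8 was detected in 39 of 85 WT carriers at 99.9 CPM and in 4 of 18 CCR2-/- carriers at 117 CPM. Krt19 was detected in 8 WT carriers, Epcam in 5 and Krt18 in 2, and in CCR2-/- Krt19 and Epcam were each detected in 1 carrier and Krt18 in 0. The gene with the most UMIs was Fabp2 in 35 WT carriers, Fabp1 in 22, Fabp6 in 22, Rbp2 in 4, and Krt8 and Reg3b in 1 each. In CCR2-/- it was Fabp2 in 9 carriers, Fabp1 in 7, and Rbp2 and Fabp6 in 1 each. The number of these genes detected per cell ranged from 2 to 8 in WT and from 1 to 5 in CCR2-/-, with 3 the most frequent number in both (24 and 9 cells).

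**Figure D2:**
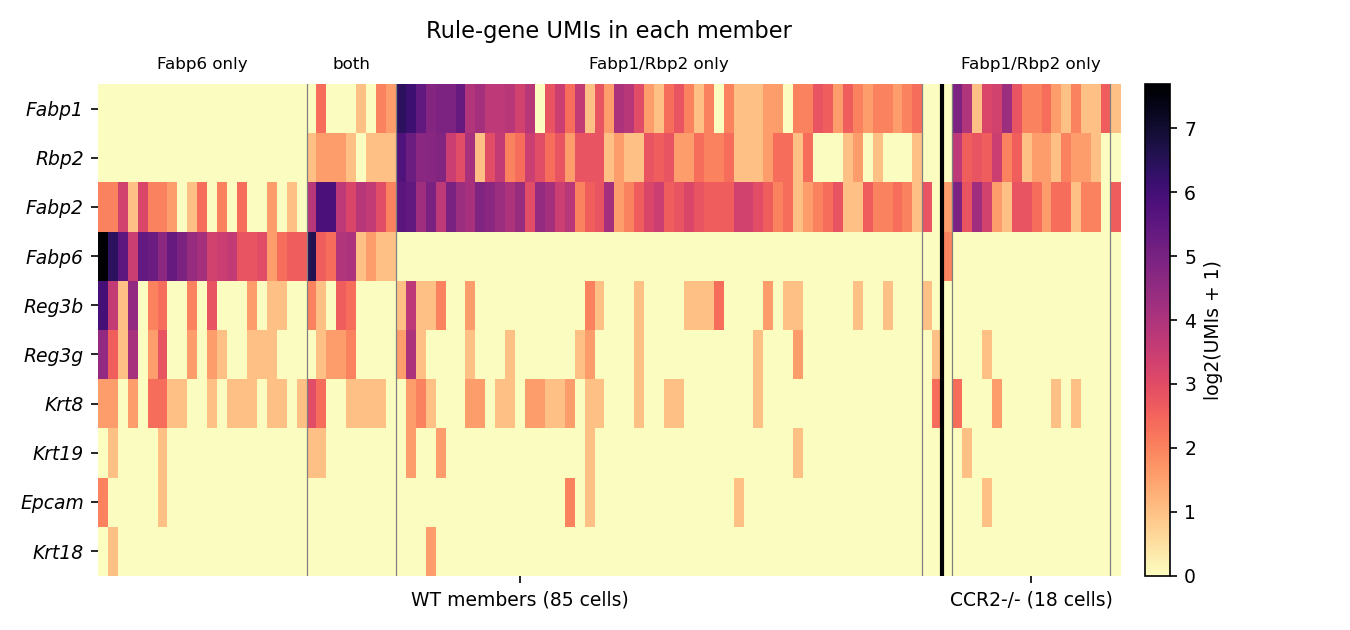
Each column is 1 carrier and each row 1 of the 10 epithelial genes; colour gives log2(UMIs + 1). The thick line separates WT from CCR2-/-, and thin lines separate carriers with Fabp6 only, with both, with Fabp1 or Rbp2 only, and with fewer than 2 UMIs of these 3 genes. Fabp6 and the pair Fabp1 and Rbp2 occupy different columns, while Fabp2 spans both.

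Most carriers held transcripts that mark either the ileum or the more proximal small intestine, and few held both. In WT, 21 of 85 carriers (24.7%) held at least 2 Fabp6 UMIs and no Fabp1 or Rbp2, and 53 (62.4%) held at least 2 UMIs of Fabp1 and Rbp2 and no Fabp6. Both were found together in 9 carriers (10.6%), and 2 had fewer than 2 UMIs of the 3 genes. In CCR2-/- 16 of 18 carriers held Fabp1 or Rbp2 without Fabp6, 1 held Fabp6 alone and 1 had fewer than 2 UMIs. The separation was clearest in cells with many such UMIs: of the 38 WT carriers with at least 10 UMIs of Fabp1, Rbp2 and Fabp6, 15 had at least 90% Fabp6, 21 had at most 10% Fabp6 and only 2 lay between. All 6 CCR2-/- carriers with that many UMIs had at most 10% Fabp6.

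Single cells show this directly. The richest WT carrier, with 12403 UMIs in all, held 206 UMIs of Fabp6, 61 of Reg3b, 22 of Reg3g and 3 of Fabp2, and 0 of Fabp1 and Rbp2. The next richest, with 10783 UMIs, held 84 of Fabp1, 53 of Rbp2 and 46 of Fabp2 and 0 of Fabp6. The third held 68 of Fabp1, 36 of Rbp2, 42 of Fabp2, 12 of Reg3b and 15 of Reg3g and again 0 of Fabp6. The richest CCR2-/- carrier, with 5050 UMIs, held 29 of Fabp1, 29 of Fabp2 and 12 of Rbp2 and 0 of Fabp6. Of the 9 WT carriers with both, the richest held 94 UMIs of Fabp6 and 1 of Rbp2, and the next richest held 5 of Fabp6, 4 of Fabp1 and 2 of Rbp2 beside 56 of Fabp2. Both kinds of carrier were found in each WT lane, with 15 Fabp6 cells and 34 Fabp1 or Rbp2 cells in lane 1 and 6 and 19 in lane 2.

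**Figure D3:**
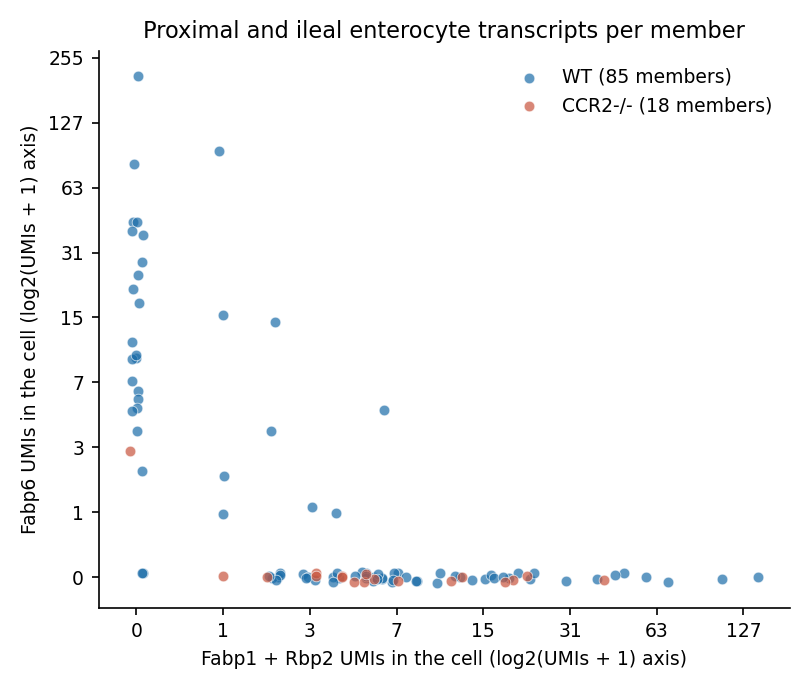
Fabp6 UMIs against the sum of Fabp1 and Rbp2 UMIs in each of the 85 WT (blue) and 18 CCR2-/- (red) carriers, on log2(UMIs + 1) axes with a small random offset. Most points lie on 1 of the axes; 9 WT carriers hold both, and 1 CCR2-/- carrier lies on the Fabp6 axis.

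The division by these 3 genes was made after the values had been seen, so the other transcripts of the kinds are described without a test. WT carriers with Fabp6 alone (21 cells, 174828 UMIs) also had the higher levels of the antimicrobial genes, with Reg3b at 658 CPM against 92.3 CPM in carriers with Fabp1 or Rbp2 alone (53 cells, 411740 UMIs). Reg3g stood at 343 CPM against 65.6 CPM. The richest Fabp6 cell held 53.0% of the Reg3b UMIs of its kind, but Reg3b was detected in 11 of 21 Fabp6 cells and 18 of 53 others, and Reg3g in 12 of 21 and 10 of 53. Carriers with Fabp1 or Rbp2 alone had the higher levels of Gsta1, a glutathione transferase, at 233 CPM against 5.72 CPM, and of Fabp2 at 1360 CPM against 269 CPM. Reg1 stood at 170 CPM against 0, with 45 of its 70 UMIs in 1 cell, so that its level rests on that cell. Gsta1 was detected in 13 of 53 Fabp1 or Rbp2 cells and in 1 of 21 Fabp6 cells, and Apoa4, an apolipoprotein of the proximal intestine, in 10 of 53 and 0 of 21.

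A further proximal transcript, S100g, which encodes the duodenal calcium-binding protein calbindin-D9k and was chosen after its values were seen, was carried mainly in CCR2-/-. It had 66 UMIs in 4 of 18 CCR2-/- carriers (963 CPM), 24 of them in 1 cell, against 9.11 CPM in CCR2-/- reference cells. In WT it had 7 UMIs in 4 of 85 carriers. Reference cells differed the same way, with S100g detected in 1.83% in CCR2-/- (54 UMIs) and 0.532% in WT (13 UMIs). The difference between libraries was therefore not particular to carriers. Between the kinds of WT carrier the medians of the uptake, lysosomal and lipid genes were close. Of 2267 genes compared, 46 stood at least 2-fold higher in Fabp6 cells and 86 in Fabp1 or Rbp2 cells. The median log2 ratio of Fabp6 to Fabp1 or Rbp2 cells was -0.04 for 19 uptake genes, -0.11 for 37 lysosomal genes and 0.02 for 6 lipid genes. The lipid median rests on few genes, and the whole lipid list summed to 20334 CPM in Fabp6 cells and 24409 CPM in the others. Of 12 cytokine and chemokine genes, 2 were at least 2-fold higher in Fabp6 cells and 3 in Fabp1 or Rbp2 cells. Of 8 interferon-induced genes, 0 and 3 were. The chemokine Ccl8 stood at 366 CPM in Fabp6 cells and 97.2 CPM in the others, but 47 of its 64 UMIs in Fabp6 cells came from 1 cell. Ccl6 stood at 326 CPM against 99.6 CPM and was detected in 14 of 21 and 21 of 53 cells.

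Carriers held many enterocyte transcripts beyond the 10 genes that selected them. A list of 40 further enterocyte genes present in the tables summed to 2007 CPM in WT carriers and 188 CPM in WT reference cells. In CCR2-/- the list summed to 2335 CPM and 233 CPM. Reference cells were required to lack the 10 genes, so this contrast follows the rule and is a description. Of the 40 genes, 18 had enough UMIs to compare in WT (at least 10 expected in carriers), 14 of them were at least 2-fold higher in carriers, the other 4 were higher by less, and 5 of the 40 had no UMI in carriers. Over all 5981 genes compared in WT, 2.06% were at least 2-fold higher in carriers and 0.803% at least 2-fold lower. In CCR2-/-, where carriers held 68515 UMIs in all, 1 of the 40 genes could be compared, and 13 had no UMI in carriers. Over all 962 genes compared there, 3.53% were at least 2-fold higher and 2.29% lower.

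The lipid transport genes were among them. Apoa1, the main apolipoprotein of high-density lipoprotein, was detected in 40 of 85 WT carriers at 144 CPM against 1.46 CPM in reference cells, and in 8 of 18 CCR2-/- carriers at 234 CPM against 3.37 CPM. Apoc3, an inhibitor of lipoprotein lipase, stood at 63.2 CPM against 1.13 CPM in WT and at 219 CPM against 1.86 CPM in CCR2-/-. Among the metabolic genes Gsta1 stood at 147 CPM against 0.665 CPM in WT and 146 CPM against 1.52 CPM in CCR2-/-. Lgals4, a galectin of the enterocyte brush border, stood at 270 CPM against 3.33 CPM in WT and 146 CPM against 3.04 CPM in CCR2-/-. In WT the ratios of these 4 genes lay between 55.9 (Apoc3) and 221 (Gsta1).

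Of 960 genes compared in both libraries, 9 were at least 2-fold higher in carriers of both and 4 at least 2-fold lower (Ccl8, Ccl12, Gas6 and Ccl2, described below). The higher genes were Rbp2, Fabp1 and Fabp2 from the rule, 2200002D01Rik from the enterocyte list, and Spink1, Gda, Plac8, Crip1 and Dstn. Spink1, a trypsin inhibitor, had log2 ratios of 5.96 in WT and 6.57 in CCR2-/- and was detected in 46 of 85 and 11 of 18 carriers, against 1.24% and 1.18% of reference cells. Gda, the guanine deaminase, had log2 ratios of 2.43 and 4.26. Crip1, a LIM domain protein, had log2 ratios of 1.76 and 3.27. Dstn, an actin-depolymerising protein, stood at 297 CPM against 104 CPM in WT and 540 CPM against 141 CPM in CCR2-/-.

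Plac8 is also used as a monocyte marker, and it stood at 680 CPM in WT carriers against 134 CPM in reference cells (log2 ratio 2.33, lanes 2.15 and 2.55). In CCR2-/- it stood at 540 CPM against 30.5 CPM (log2 ratio 4.10). Ccr2 itself, the monocyte receptor, did not follow it. Ccr2 stood at 189 CPM in WT carriers against 315 CPM in reference cells and was detected in 26 of 85 carriers (30.6%, 21.1% to 41.5%). Its level in carriers was 256 CPM in lane 1 and 56.9 CPM in lane 2, against 331 and 279 CPM in reference cells, so lane 2 sets most of the difference. In CCR2-/- carriers 1 Ccr2 UMI was found. The other 5 monocyte genes that could be compared in WT (Ly6a, Ccr2, Lsp1, S100a6 and Ms4a4c) were all lower in WT carriers than in reference cells, with log2 ratios from -0.83 to -0.26. In the 5 epithelial cells of the WT library described next, Plac8 stood at 3610 CPM.

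The libraries also held a few cells that were epithelial by the same genes and not macrophages (10 genes at least 1% of UMIs, C1q under 0.1%), 5 in WT and 1 in CCR2-/-. In them the 10 genes summed to 71515 CPM in WT and 96149 CPM in CCR2-/-. WT carriers reached 4126 CPM and CCR2-/- carriers 4218 CPM, which was 5.77% and 4.39% of the level in those cells. WT reference cells stood at 30.7 CPM and CCR2-/- reference cells at 37.8 CPM. The composition also differed: in the WT epithelial cells Reg3b made up 36.7% of the UMIs of the 10 genes and Epcam 2.11%, while in WT carriers Reg3b made up 5.95% and Epcam 0.320%. The level and the composition in WT rest largely on 1 epithelial cell, which held 2695 of the 3942 UMIs of the 10 genes (68.4%) and 1155 of the 1447 Reg3b UMIs. The 5 cells gave the 10 genes between 1.58% and 17.4% of their own UMIs. The single CCR2-/- epithelial cell held 450 UMIs of Fabp1 and 250 of Reg3b and 0 of Fabp6. Both classes were picked on the 10 genes, so these were left out of the next counts, which are a description. Of the other 116 genes at least 2-fold higher in WT carriers, 82 (70.7%) stood at no less than 2 times the reference level in the WT epithelial cells, against 19.4% of all 5974 genes compared. In CCR2-/- this held for 19 of 31 genes (61.3%) against 10.5%. Of the genes at least 16-fold higher in carriers it held for 32 of 32 in WT and 4 of 5 in CCR2-/-. Both ratios share the reference level, so genes scarce in reference cells tend to pass both. The WT epithelial cells held 55121 UMIs, where 1 UMI is 18.1 CPM, and the CCR2-/- cell held 12855. A gene scarce in reference cells can thus pass on few epithelial UMIs, and these counts are partly fixed by the comparison.

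Lymphoid cells outside the C1q gate give the level of the 10 genes in cells that should lack most of them. In 25 such WT cells (at least 20 UMIs of T cell, innate lymphoid, B cell and plasma cell genes, median 8754 UMIs) the 10 genes summed to 197 CPM, and 31 of the 47 UMIs were Epcam. Fabp1, Rbp2 and Krt8 had 0 UMIs there, where 3 UMIs would have been 12.6 CPM, and Fabp6 had 2. Fabp2 had 10 UMIs in 4 of these 25 cells, 6 of them in 1 cell, at 41.9 CPM (20.1 to 77.1). That was below the level in carriers. All C1q-positive WT cells stood at 69.95 CPM of Fabp2, a value within that interval. WT reference cells stood at 11.4 CPM, but the rule holds each of them to at most 1 UMI of the 10 genes. Their level is therefore not comparable with that of the lymphoid cells, which had no such limit. In 17 CCR2-/- lymphoid cells (median 4469 UMIs) the sum was 90.3 CPM, or 7 UMIs, of which 4 were Epcam. No lymphoid cell reached 0.1% for the 10 genes, and the highest were 0.0930% in WT and 0.0859% in CCR2-/-. These 25 and 17 cells are too few to show or exclude a class as rare as carriers. At least 5 UMIs of the 10 genes were found in 3 of the 25 WT lymphoid cells, with a maximum of 8. Among the 2639 C1q-positive WT cells, 144 held that many. All C1q-positive WT cells together stood at 231 CPM, and those of CCR2-/- at 109 CPM.

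Doublet scores of carriers were near those of reference cells. Scrublet simulates doublets from the cells of each lane. Lanes 1 and 2 of WT held 4 and 1 of the epithelial cells, and CCR2-/- held 1. Few simulated doublets could therefore join a macrophage and an enterocyte, and the scores say little about such pairs. The median Scrublet score was 0.0713 in WT carriers and 0.0672 in reference cells, and 0.0650 and 0.0732 in CCR2-/-. Cells with the highest scores, taken at an assumed 0.8% per 1000 cells of a lane, numbered 1 of 85 WT carriers against 31 of 2257 reference cells (1.37%), and 1 of 18 CCR2-/- carriers against 48 of 2127 (2.26%). The automatic threshold of the caller marked 2 of 2109 and 10 of 907 cells in the WT lanes and 8 of 2612 in CCR2-/-. Genes of other cell types varied in direction. The lymphoid lists summed to 351 CPM in WT carriers and 357 CPM in reference cells, and to 394 and 431 CPM in CCR2-/-, with most of the WT sum from Xbp1 (175 CPM) and Jchain (131 CPM), genes of plasma cells. At least 3 lymphoid UMIs were found in 36 of 85 WT carriers and 29.6% of WT reference cells, and in 4 of 18 CCR2-/- carriers and 13.9% of reference cells. The goblet cell gene Tff3 stood at 26.4 CPM in WT carriers against 4.32 CPM in reference cells, with 14 of its 18 UMIs in 1 cell, and had 0 UMIs in CCR2-/- carriers. The Paneth cell list summed to 33.8 CPM in WT carriers and 78.9 CPM in reference cells, and to 131 CPM (9 UMIs) and 98.0 CPM in CCR2-/-. The 5 barcodes that the WT lanes share include 1 carrier, and the 6 that WT and CCR2-/- share include 0. Whether joined cells, free RNA or engulfed material placed these transcripts in the droplets was not tested.

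Most genes of uptake, degradation and lipid handling lay within 2-fold of reference cells, with some uptake genes lower. Of 42 uptake genes in the tables, 29 could be compared in WT, with 0 at least 2-fold higher, 3 at least 2-fold lower and a median log2 ratio of -0.10. Over all genes compared in WT, 0.803% were at least 2-fold lower and the median was 0.04. In CCR2-/- 15 could be compared, with 0 higher, 2 lower and a median of -0.19, beside 2.29% lower and a median of 0.04 over all genes. The WT lanes differed, with 0 higher and 2 lower of 27 uptake genes compared in lane 1 and 2 higher and 0 lower of 23 in lane 2. The lane 2 count leaves out Cd163 (log2 ratio -2.74) and Cd36 (-3.18), which had only 1 UMI each in carriers there. Among the receptors for dying cells, Mertk stood at 47.0 CPM in WT carriers and 36.9 CPM in reference cells, a ratio of 1.27 (0.862 to 1.82), and had 9 UMIs in CCR2-/- carriers. The Mertk ratio was 0.945 in lane 1 and 2.16 in lane 2. Cd300a, a receptor for phosphatidylserine, stood at 220 CPM against 159 CPM in WT, a ratio of 1.39 (1.17 to 1.64), and 292 CPM against 178 CPM in CCR2-/-, a ratio of 1.64 (0.998 to 2.55). The scavenger receptor Msr1 stood at 241 CPM against 207 CPM in WT and 321 CPM against 242 CPM in CCR2-/-, with WT ratios of 0.977 in lane 1 and 1.66 in lane 2. The lower uptake genes were Cd163, Gas6 and Cd36 in WT and Gas6 and Mrc1 in CCR2-/-, with Cd36 at log2 ratios of -0.52 in lane 1 and -3.18 in lane 2.

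The lysosomal genes were also close to the reference level. Of 47 genes 45 could be compared in WT, with 0 at least 2-fold apart in either direction and a median log2 ratio of 0.06. In CCR2-/- 27 could be compared, with 0 higher, 1 lower (Ctsa, 7 UMIs in carriers) and a median of -0.08. The summed level of the list was 25117 CPM in WT carriers and 22971 CPM in reference cells, and 26155 and 27509 CPM in CCR2-/-. In lane 1 it was 22613 against 22322 CPM and in lane 2 30080 against 24460 CPM, so the WT difference came mainly from lane 2. The gene with the highest ratio over both libraries was Acp5, the tartrate-resistant acid phosphatase. Acp5 stood at 1018 CPM in WT carriers against 637 CPM in reference cells, a ratio of 1.60 (1.48 to 1.73), and at 978 CPM against 532 CPM in CCR2-/-, a ratio of 1.84 (1.42 to 2.34). It was detected in 84 of 85 WT carriers against 75.5% of reference cells, and in 17 of 18 CCR2-/- carriers against 55.9%. The log2 ratio was 0.36 in lane 1 and 1.07 in lane 2, and with reference cells weighted to the depth of carriers it was 0.69 in WT and 0.78 in CCR2-/-. Acp5 stood at 200 CPM in the 5 WT epithelial cells (55121 UMIs) and 156 CPM in the 1 CCR2-/- epithelial cell (12855 UMIs), below the reference cells. These levels rest on few UMIs, and the source of the Acp5 difference was not tested.

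The lipid handling genes were likewise close. Of 38 genes 26 could be compared in WT, with 0 at least 2-fold apart on the scale of log2(CPM + 1) and a median log2 ratio of 0.14, and 4 in CCR2-/-, with 0 apart and a median of -0.03. Pparg, the nuclear receptor of fatty acid metabolism, had the highest WT log2 ratio, 0.96, which without the added 1 CPM is a ratio of 2.03 (1.09 to 3.52) on 14 UMIs in carriers, and had 2 UMIs in CCR2-/-. Nr1h3, the oxysterol receptor LXR alpha, stood at 55.8 CPM against 34.5 CPM in WT, and its target Abca1, the cholesterol exporter, at 39.7 CPM against 58.7 CPM. In CCR2-/- Nr1h3 had 1 UMI and Abca1 4 UMIs in carriers. Among the 21 genes of macrophage identity, all compared in WT, 0 were 2-fold apart and the median was -0.05; in CCR2-/- 17 were compared, with 0 apart and a median of -0.11. The 9 MHC class II genes had a median of -0.14 in WT, and 8 compared in CCR2-/- had a median of -0.23.

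**Figure D4:**
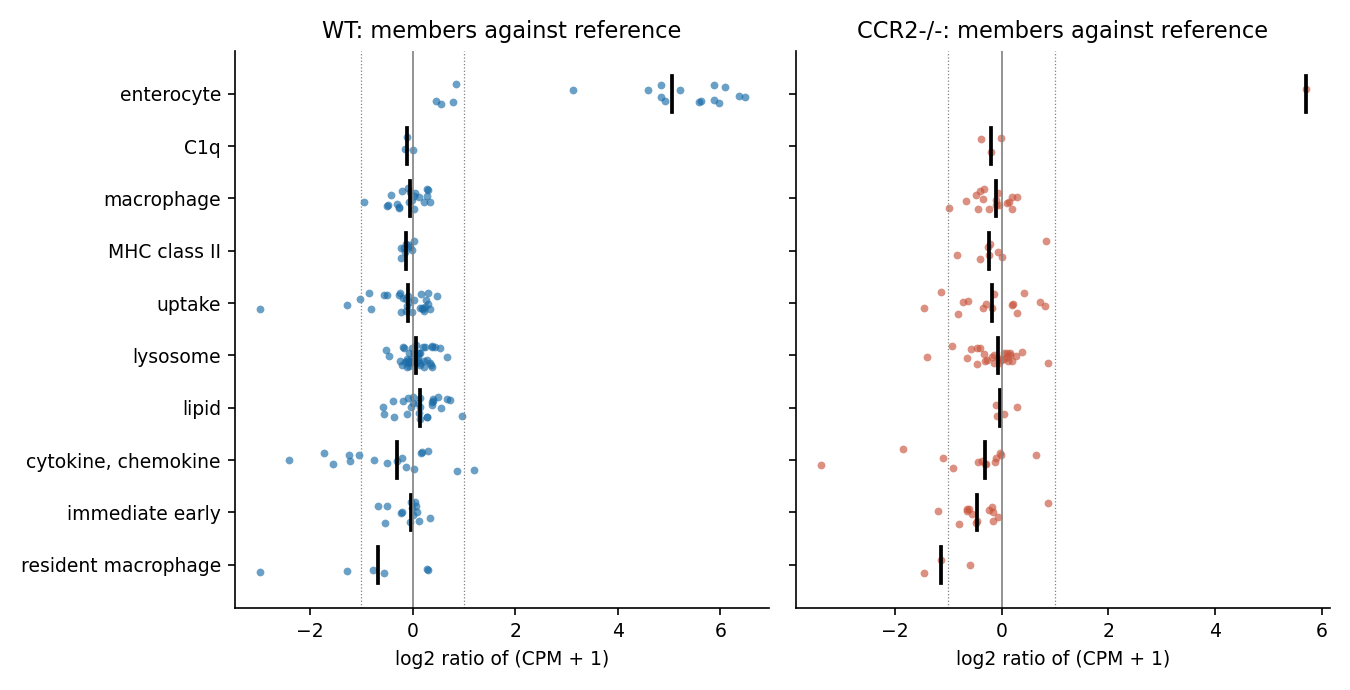
Log2 ratio of carriers to reference cells for each compared gene (points) of 10 lists, with the median of each list (black bar), in WT (left) and CCR2-/- (right). Dotted lines mark 2-fold. In WT 14 of 18 enterocyte genes lie to the right of the 2-fold line and the others within it, and CCR2-/- has 1 enterocyte gene, to the right. The uptake, lysosome and lipid lists lie around 0, and the points farthest left belong to the uptake, chemokine and resident macrophage lists.

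The chemokine genes leaned the other way. Of 17 cytokine and chemokine genes compared in WT, 1 was at least 2-fold higher in carriers (Cxcl1, 17 UMIs), 6 were at least 2-fold lower and the median log2 ratio was -0.30. Over all genes compared in WT, 2.06% were at least 2-fold higher, 0.803% at least 2-fold lower and the median was 0.04. In CCR2-/- 13 were compared, with 0 higher, 3 lower and a median of -0.32, beside 3.53% higher, 2.29% lower and a median of 0.04 over all genes. Ccl2, which draws monocytes into tissue, stood at 58.8 CPM in WT carriers against 174 CPM in reference cells (log2 ratio -1.55, lanes -1.67 and -1.26) and at 350 CPM against 752 CPM in CCR2-/- (log2 ratio -1.10, or -0.84 without the 3 richest carriers). Ccl12 stood at 154 CPM against 360 CPM in WT (log2 ratio -1.22) and 175 CPM against 632 CPM in CCR2-/- (log2 ratio -1.84, where 8 of 12 UMIs in carriers came from 1 cell). Ccl8 stood at 179 CPM against 369 CPM in WT (log2 ratio -1.04). The direction of the WT ratio turned with the summary, since the mean of the cells' own shares gave a log2 ratio of 0.29. Ccl8 was detected in 27 of 85 carriers and 36.3% of reference cells. In CCR2-/- carriers Ccl8 had 2 UMIs, 29.2 CPM against 316 CPM. Ccl24 is an example of a gene that 1 lane decides: its log2 ratio was -1.05 in lane 1 and 2.18 in lane 2.

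Some genes of long-lived resident macrophages were also lower, and in WT the lanes differed for several of them. Of 6 compared in WT, 2 were at least 2-fold lower, 0 at least 2-fold higher, with a median log2 ratio of -0.67. Over all genes compared in WT, 0.803% were at least 2-fold lower and 2.06% higher. The median was -1.10 in lane 1, with 3 of 6 at least 2-fold lower, and -0.01 in lane 2, with 0 of 4 lower and 1 higher. These lane medians rest on different genes, because Cd163 and Igf1 had too few UMIs to be compared in lane 2. Over all genes, 41 of 4772 were at least 2-fold lower and 75 higher in lane 1. In lane 2 the numbers were 37 lower and 118 higher of 2737. Igf1 had log2 ratios of -1.685 in lane 1 and 0.27 in lane 2. Of 3 compared in CCR2-/- 2 were lower, with a median of -1.14, beside 2.29% lower over all genes compared there. Cd163, the haemoglobin scavenger receptor, had 3 UMIs in the 85 WT carriers, 4.41 CPM against 41.8 CPM, a ratio of 0.105 (0.0217 to 0.310). It was detected in 3.53% of WT carriers (0.734% to 9.97%) and 13.1% of WT reference cells. The Cd163 log2 ratio was -3.08 in lane 1 and -2.74 in lane 2, on 2 and 1 UMIs in carriers. In CCR2-/- Cd163 had 4 UMIs in carriers, 58.4 CPM against 163 CPM. Gas6, the bridging ligand of Mertk, stood at 33.8 CPM against 83.0 CPM in WT, a log2 ratio of -1.27 (-1.73 in lane 1, -0.66 in lane 2), and at 87.6 CPM against 243 CPM in CCR2-/-, on 6 UMIs. Mrc1, the mannose receptor, stood at 251 CPM against 369 CPM in WT and 336 CPM against 742 CPM in CCR2-/-. Timd4, a phosphatidylserine receptor of resident cells, did not share this direction in WT, at 45.5 CPM against 36.6 CPM, and its lanes differed in sign (-0.43 and 1.31). Cd4 was also higher in WT, at 113 CPM against 92.6 CPM, and lower in CCR2-/-, at 146 CPM against 222 CPM.

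Across all C1q-positive cells the other enterocyte transcripts were higher at each step of the 10 genes, while the macrophage lists followed no common course. In WT the 40-gene enterocyte list summed to 186 CPM in cells with 0 UMIs of the 10 genes, 193 CPM with 1, 291 CPM with 2 to 4, 439 CPM with 5 to 9, 800 CPM with 10 to 19 and 3000 CPM with at least 20. In CCR2-/- the values ran from 225 CPM with 0 UMIs to 1265 CPM with 5 to 9, and to 3736 CPM in the 6 cells with at least 20. Over the same WT steps the uptake list lay between 7307 and 8041 CPM, with its lowest value in the richest cells. The lysosomal list climbed in WT from 22948 CPM with 0 UMIs to 26233 CPM with 10 to 19 and stood at 23251 CPM in the richest cells. The lipid list was highest at 5 to 9 UMIs in WT, at 28027 CPM, but in lane 2 it was highest in the 10 richest cells, at 33745 CPM against 26612 CPM with 0. In CCR2-/- the lysosomal list was 27657 CPM with 0 UMIs, 29499 CPM with 5 to 9 and 21713 CPM in the richest cells. In CCR2-/- the uptake list was 7213 CPM in cells with 0 UMIs, 7039 CPM with 5 to 9, and 4705 and 5370 CPM in the 2 and 6 cells above that. Cells with more of the 10 genes were also deeper, with WT medians of 5680 UMIs in cells with 0 and 9802 in cells with at least 20.

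**Figure D5:**
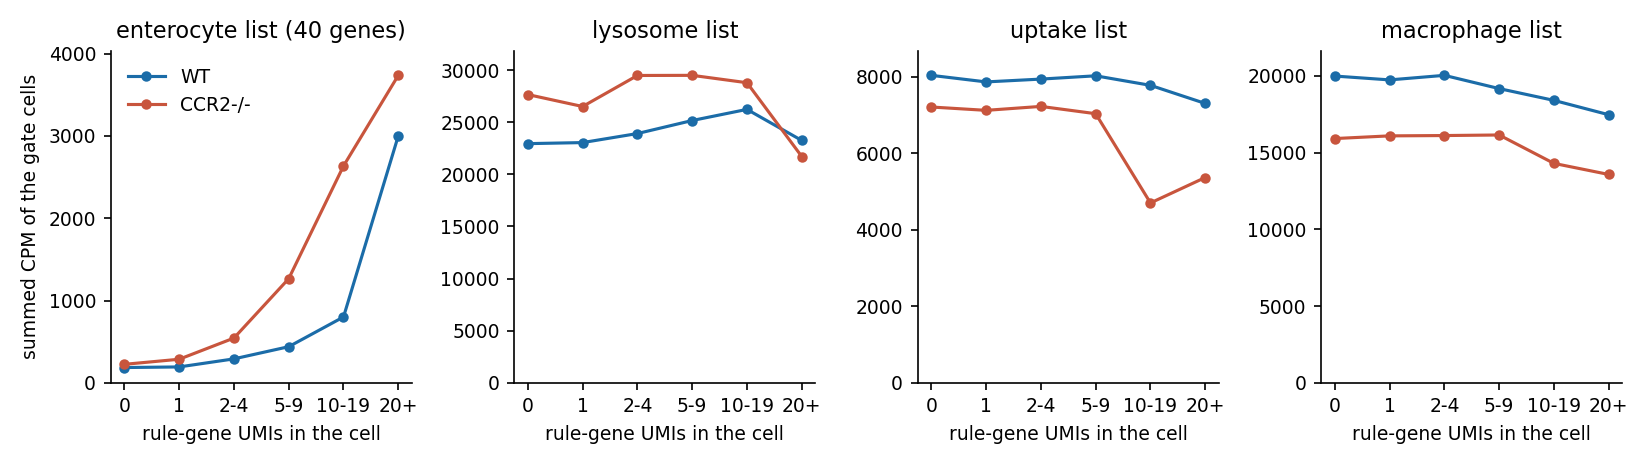
Summed CPM of 4 gene lists in C1q-positive cells grouped by their UMIs of the 10 epithelial genes (x axis), for WT (blue) and CCR2-/- (red); all axes start at 0. The enterocyte list climbs from 186 to 3000 CPM in WT, the lysosome list lies between 22948 and 26233 CPM and the uptake list between 7307 and 8041 CPM; the last 2 CCR2-/- points rest on 2 and 6 cells.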

How the data were processed

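The values are raw UMI counts, whole numbers for each gene in each cell, used as the authors deposited them. Per the submitters' processing notes the authors used Cell Ranger 3.0.1 and the mm10 build; how cells were called is not given in the sources used here. The 27998 gene rows were summed to 27933 symbols, and coordinates are from GENCODE M21 (GRCm38). The WT library held 3054 cells and 20766579 UMIs and the CCR2-/- library 2774 cells and 7506405 UMIs; 3016 and 2612 cells passed the cell filter and 2639 and 2208 the C1q minimum. No test was run, because carriers were chosen by the readout and each genotype has 1 library. UMIs were summed per class and scaled to 1000000; log2 ratios add 1 CPM, and a gene was compared where the mean level of the classes corresponds to at least 10 UMIs in carriers. Scrublet, run in scanpy 1.11.5 on each lane, gave doublet scores, and no cell was removed by them. The ratios and intervals were tested on simulated data. Carriers, the 36 gene lists and the rule for named genes (up to 4 highest and 4 lowest per list, and those outside the lists at least 2-fold apart in both libraries) were chosen with earlier results of these data known; 9 symbols of the lists have no row in the table. Ccl6, S100g and the genes of the closing observations were named after their values were seen. Alternatives varied the thresholds, reference, scaling, minimum, cell filters and lanes. Python 3.11.15 with numpy 2.4.6, scipy 1.17.1 and pandas 2.3.3 was used. The results of 1 gene are not reported here.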

Additional observations from a re-analysis of the deposited data

How the results depend on the processing

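No paired analysis was possible because each genotype has 1 library. The share of carriers followed the rule. With 3 UMIs and 0.05% it was 6.14% in WT and 2.08% in CCR2-/-; with 10 UMIs and 0.2%, 1.74% and 0.362%. Thinning to 2000 UMIs gave 1.82% in WT, and a C1q minimum of 1% left 1 CCR2-/- carrier (0.138%), 1 gene higher, 1 lower and a lipid median of -0.50. WT genes at least 2-fold higher and lower numbered 123 and 48; they were 76 and 19 with a pseudocount of 10 CPM, 1020 and 895 with no minimum, 34 and 10 with a minimum of 30 expected UMIs, with 88 lower with the mean of the cells' shares and 75 higher in lane 1 alone. The CCR2-/- counts of 34 and 22 became 1642 and 5007 with no minimum and 5 and 6 with the minimum of 30; lower genes numbered 54 at 3 UMIs and 42 with the mean of shares. The WT uptake median of -0.10 moved to 0.0762 at 3 UMIs, 0.0849 without cells holding lymphoid UMIs (49 carriers), -0.0428 with a depth-weighted reference, -0.0084 with the minimum of 30, -0.041 with the mean of shares, -0.0404 and 0.0146 in lanes 1 and 2 and -0.0423 without the 3 richest carriers, an alternative chosen after seeing the data. The CCR2-/- uptake median of -0.19 moved to -0.10 at 3 UMIs, -0.49 at 10 UMIs, -0.10 at 5% mitochondrial UMIs, -0.24 with a reference of 0 UMIs, -0.31 with a depth-weighted reference, -0.26 with no minimum, -0.75 with the minimum of 30, -0.27 with the mean of shares and -0.34 without lymphoid UMIs. The CCR2-/- lipid median was 0.44 at 10 UMIs and -0.44 with no minimum. These medians moved by more than the lanes differ. Ccl8 changed direction in WT, to 0.29, with the mean of shares. Among the 18 WT and 14 CCR2-/- genes that were followed and at least 2-fold apart, Ccl8, Ccl12 and Gas6 in WT and Ccl2, Gas6 and Mrc1 in CCR2-/- came under 2-fold in at least 1 alternative. The cause was not tested. The 68515 UMIs of the CCR2-/- carriers limit their ratios to 962 genes.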

Other observations

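Other transcripts of the enterocyte surface, named here after their values were seen, were also carried in WT. Vil1, the actin bundler villin of the microvillus core, stood at 48.5 CPM in WT carriers against 1.06 CPM in reference cells. Pls1 (plastin 1) stood at 60.2 CPM against 0.732 CPM, Myo1a, the brush border myosin, at 30.9 CPM against 0.333 CPM, and Espn (espin) had 27 UMIs in carriers, a ratio of 19.9 (11.4 to 34.6). Ezr (ezrin), which links actin to the membrane in many cells, stood at 74.9 CPM against 35.3 CPM. Guca2b, the gut hormone uroguanylin, stood at 104 CPM against 1.20 CPM, and Ckmt1, a mitochondrial creatine kinase, at 76.4 CPM against 0.865 CPM.

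Among genes in no list, also named after their values were seen, Cycs (cytochrome c) stood at 277 CPM in CCR2-/- carriers against 74.7 CPM in reference cells, and Uqcr10, a subunit of the respiratory chain, at 453 CPM against 193 CPM. In WT neither was 2-fold apart, with Cycs at 272 CPM against 202 CPM and Uqcr10 at 454 CPM against 349 CPM. The 12 mitochondrially encoded genes compared in CCR2-/- had a median log2 ratio of 0.03. In WT carriers, 3 of 9 compared genes of dividing cells stood at least 2-fold above reference cells, beside 2.06% of all genes compared. The count was 3 of 6 in lane 2, 0 of 5 in lane 1 and 0 of 2 in CCR2-/-. The genes were Tyms, Top2a and Birc5 in WT, and Stmn1, Top2a and Birc5 in lane 2. Top2a had 55 UMIs in 14 carriers, and Birc5 had 25 UMIs, 17 of them in 1 cell. Lane 1 held 37 of the Top2a UMIs, at a ratio of 1.86 (1.29 to 2.60). Rsad2, an interferon-induced gene, was 2-fold higher in WT carriers, with 49 of its 66 UMIs in 1 cell.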
